A study of Mus musculus with 8 samples.

Results

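The clustered protocadherin genes were examined in peak lists from ChIP-seq, an assay that enriches DNA bound by a chosen protein before sequencing. Members were the RefSeq protein-coding genes whose symbols start with Pcdha, Pcdhb or Pcdhg, and 57 of the 21887 protein-coding genes on the main chromosomes qualified. They comprise 14 alpha, 22 beta and 21 gamma genes. All lie on chromosome 18 of the mm10 build, between 36930285 and 37841873, a span of 912 kb. The gamma gene Pcdhgb8 is annotated as a transcribed pseudogene and is no member.

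Antibodies targeted Mgea5 (the O-GlcNAc hydrolase), Panx2 (a channel protein of the pannexin family) and Polr1c (common to RNA polymerases I and III). All 8 libraries came from primary neural progenitor cells of the hippocampus of male C57BL/6 mice, whose age is not given in the sources used here, and no library carries a further treatment or allele. Each protein had 2 replicate libraries, and the 2 libraries of input chromatin were not analysed here. The labels do not tell whether replicates stem from different cultures or animals. Peak lists hold no expression values, so the cell type could not be checked against its markers.

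Clustered protocadherins are cell adhesion proteins of neurons whose combinations give a cell a surface identity and let its branches avoid each other. In the alpha and gamma groups each gene has its own promoter and a long first exon that encodes the extracellular, transmembrane and proximal cytoplasmic parts, and this exon is spliced to constant exons that all genes of the group share. Beta genes consist of a single large exon and have no constant part. Single neurons choose few of these promoters, and the insulator protein CTCF and cohesin take part in the choice. The C-type genes (Pcdhac1, Pcdhac2, Pcdhgc3, Pcdhgc4 and Pcdhgc5), which end the alpha and gamma groups, are expressed more widely.

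The annotation used here gives gene spans without strands or exons for this locus. The shared ends of the alpha and gamma genes place the constant exons on the high-coordinate side: 13 of the 14 alpha genes end within 10 bp of 37187657, and the 21 gamma genes end between 37841863 and 37841873. The low-coordinate end was therefore taken as the gene start. The first 2500 bp stand in for the first exon and are called so here. Beta genes span 2340 to 5271 bp, so the rest of the longer ones is counted as sequence between first exons. The constant region is the sequence from 2500 bp after the last start of a group to the shared end (37146178 to 37188897 for alpha, 37822046 to 37841873 for gamma), and it includes introns.

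Peaks in the locus were weak, as were most peaks of the Mgea5 and Panx2 lists. Mgea5 had 166 peaks in replicate 1 and 123 in replicate 2, Panx2 had 57 and 149, and Polr1c had 0 and 9. The fold enrichment of each peak is the authors' value, a ratio of ChIP signal to background. Median folds in the locus were 1.73 and 1.72 for Mgea5, 1.79 and 1.85 for Panx2, and 2.75 for the 9 Polr1c peaks. Over the whole lists these medians were 1.71, 1.71, 1.80 and 1.84, and 2.75 for Polr1c replicate 2. No peak in the locus reached a q of 0.01 in any list, and a −log10 q of 0 was deposited for 163 of 166, 123 of 123, 57 of 57 and 91 of 149 of the Mgea5 and Panx2 peaks. The lists differ in length and threshold, so their numbers of peaks do not compare the proteins. Names of the peaks show that the lists of Panx2 replicate 1 and Polr1c replicate 1 came from another calling run than the other 4.

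**Figure D1:**
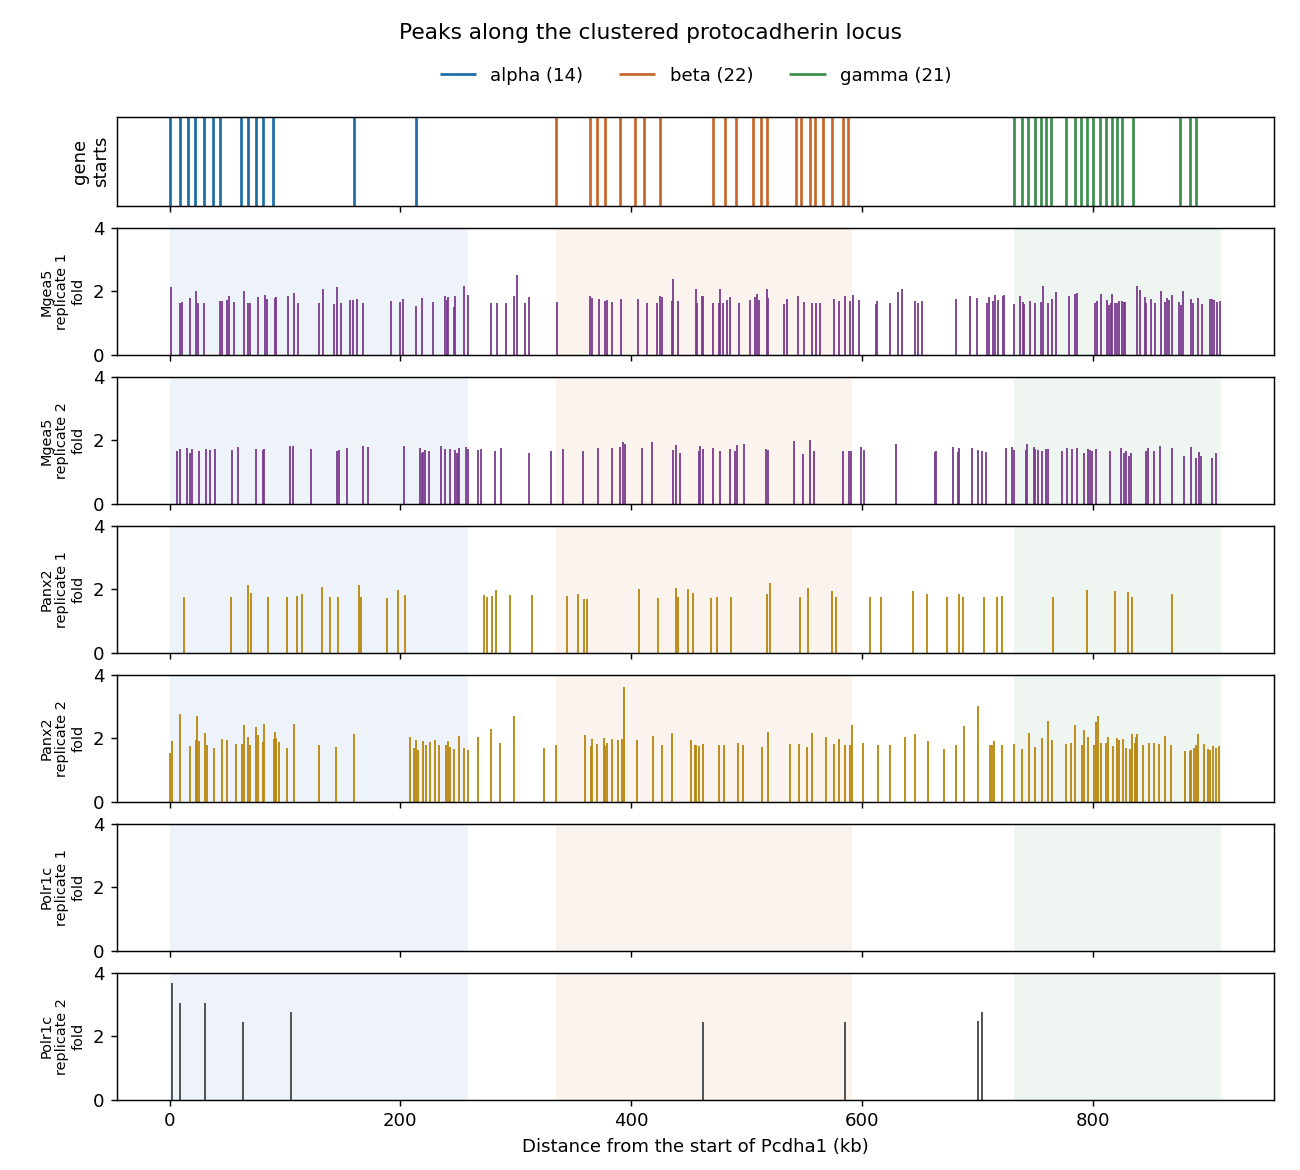
Each vertical line is a peak, placed by the distance of its centre from the start of Pcdha1 (kb) and drawn to its fold enrichment, with a panel for each of the 6 lists; the top panel marks the starts of the 14 alpha, 22 beta and 21 gamma genes and the shading their spans. Polr1c replicate 1 has no peak, and the 9 Polr1c replicate 2 peaks leave the gamma group empty.

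Peaks covered 10.3% and 6.81% of the locus in the Mgea5 lists, against 13.3% and 10.4% of the main chromosomes. For Panx2 the shares were 5.55% and 9.91%, against 4.64% and 11.9%. For Polr1c they were 0% and 0.205%, against 0.0110% and 0.290%. Among 2911 adjoining windows of the same length across the genome, 36.2% and 31.0% had a lower Mgea5 share than the locus, 66.9% and 45.2% a lower Panx2 share, and 44.8% a lower share in Polr1c replicate 2. The locus was thus below the median window in 4 lists and above it in Panx2 replicate 1. In Polr1c replicate 1 it was at 0, as was the median window. The 500 kb on either side of it were denser in Mgea5 (16.7% and 15.4% before, 20.5% and 13.3% after).

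Within the arrays, Mgea5 replicate 1 and Panx2 replicate 2 peaks covered a larger share of the first exons than of the sequence between them. In Mgea5 replicate 1, peaks covered 22.7% of alpha first exons but 4.93% of the sequence between them. The beta values were 34.9% and 3.67%, and the gamma values 26.4% and 11.5%. Panx2 replicate 2 had the same order, with 30.6% and 2.80% for alpha, 19.1% and 4.47% for beta, and 32.6% and 8.20% for gamma. The other 2 lists did not repeat this to the same degree. In Mgea5 replicate 2 the shares were 6.01% and 3.71% for alpha, 7.51% and 5.73% for beta, and 17.6% and 9.16% for gamma. In Panx2 replicate 1 the order was turned, with 1.58% and 8.97% for alpha, 1.62% and 7.81% for beta, and 1.81% and 2.20% for gamma.

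Over the 57 members together, first exons were covered by 28.8% and 10.9% in the Mgea5 lists and by 1.68% and 26.9% in the Panx2 lists. The first 2500 bp of all protein-coding genes were covered by 25.2% and 13.5%, and by 3.77% and 30.8%. First exons of members were therefore above that level in Mgea5 replicate 1 and below it in the other 3 lists, while the sequence between them was below the genome's share in both Mgea5 lists and Panx2 replicate 2. No test between stretches was made, since 2 lists per protein are too few for an exact test to pass a threshold of 0.05.

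**Figure D2:**
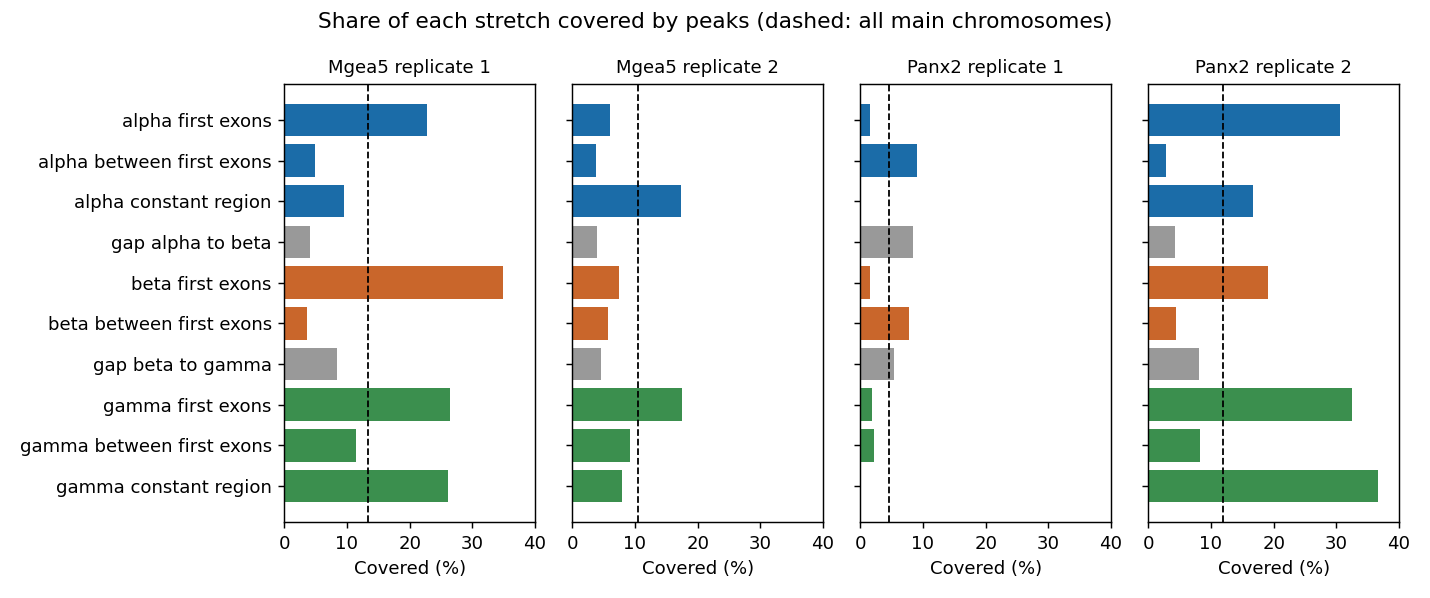
Bars give the share of each stretch of the locus covered by peaks (%) in the 4 Mgea5 and Panx2 lists, with the share of all main chromosomes as a dashed line. First exons reach 34.9% in Mgea5 replicate 1 (beta) and 32.6% in Panx2 replicate 2 (gamma), while in Panx2 replicate 1 they stay at or below 1.81%.

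The constant regions differed between groups and between replicates. The alpha constant region was covered by 9.54% and 17.4% in Mgea5 and by 0% and 16.6% in Panx2, and it had no Polr1c peak. The gamma constant region was covered by 26.1% and 8.00% in Mgea5 and by 0% and 36.7% in Panx2, again without Polr1c. The stretch without any peak of Panx2 replicate 1 ran from 37134567 to 37202420 (67.9 kb), over the start of Pcdhac2 and the whole alpha constant region. In Panx2 replicate 2 the longest empty stretch was 48.1 kb, from 37090693 to 37138765, and held no member's start. The gap between the alpha and beta groups was covered by 4.02% and 3.95% in Mgea5, and that between beta and gamma by 8.41% and 4.61%.

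Around the starts, the profile of the members differed in shape from that of other genes. In bins of 500 bp, coverage of all 17492 protein-coding genes with a known strand in Mgea5 replicate 1 rose from 26.0% in the 500 bp before the start to 33.7% in the 500 bp after it, and fell to 18.2% at 2000 to 2500 bp. The members were at 5.11% before the start, 28.1% after it, 14.5% at 1000 to 1500 bp and 39.6% at 2000 to 2500 bp. Coverage of the members thus had a second maximum near the end of the first 2500 bp, and dropped to 11.9% in the next bin. The beta genes reached 54.5% at 1500 to 2000 bp in that list, against 19.8% of all genes.

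In Panx2 replicate 2 the 57 members were at 35.7% in the first 500 bp, 19.7% in the next bin and 37.9% at 1500 to 2000 bp, and the groups differed. Its alpha genes were covered by 46.9% in the first 500 bp, 12.4% in the next bin and 42.4% at 1500 to 2000 bp, and all genes by 43.7%, 35.9% and 22.5%. Its beta genes had 11.4% and 4.03% in the first bins but 45.8% at 1500 to 2000 bp. Its gamma genes were highest at the start (53.6%) and fell through the stretch, to 26.6% at 1500 to 2000 bp and 14.1% in the last bin. In Mgea5 replicate 2 the 57 members were at 14.6% in the first bin, 5.82% at 1000 to 1500 bp and 12.3% at 2000 to 2500 bp. All genes were at 13.2%, 13.6% and 12.0% in these bins. The members were thus clearly lower at 1000 to 1500 bp and near the level of all genes in the other bins named. The gamma genes of that list were highest at 2000 to 2500 bp (22.5%), and its beta genes in the first bin (15.7%). In Panx2 replicate 1 members were at 3.64% in the first bin, 0% at 1000 to 1500 bp and 3.22% at 2000 to 2500 bp. All genes were at 3.05%, 4.04% and 4.44% there. Coverage of the members in that list was highest beyond the first 2500 bp, with 8.73% at 3500 to 4000 bp.

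**Figure D3:**
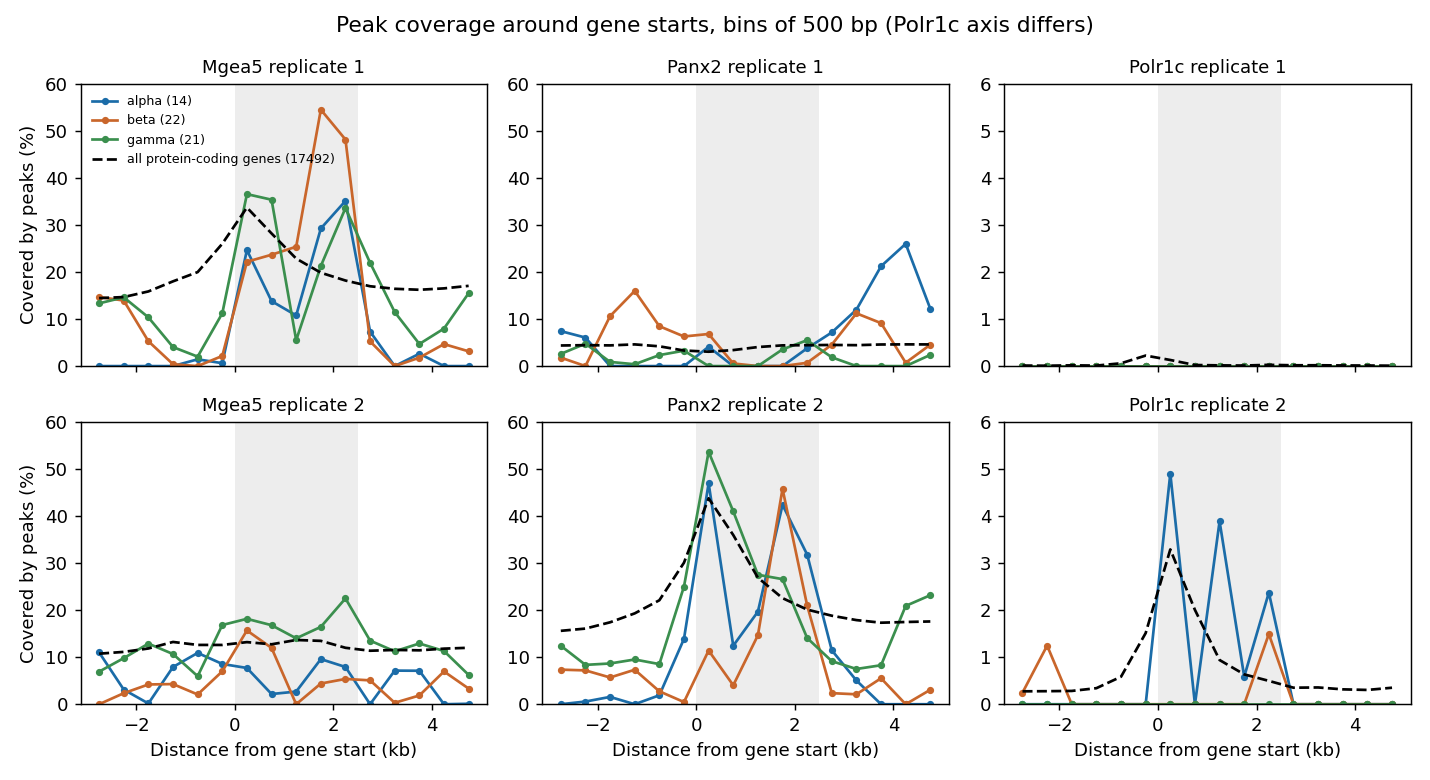
Lines give the share of bases covered by peaks (%) in bins of 500 bp, by distance from the gene start (kb), for alpha, beta and gamma members and, dashed, for 17492 protein-coding genes with a known strand; grey marks the first 2500 bp, and the Polr1c axis ends at 6%. The beta genes in Mgea5 replicate 1 (54.5%) and the alpha and beta genes in Panx2 replicate 2 (42.4% and 45.8%) are high at 1500 to 2000 bp, where the dashed line falls, while the gamma genes in Panx2 replicate 2 fall from the start on.

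Counted by gene, a larger share of members than of other genes had a peak late in the first exon in Mgea5 replicate 1 and Panx2 replicate 2. In Mgea5 replicate 1, 41 of 57 members (71.9%) had a peak in the last 1000 of the 2500 bp, against 43.0% of genes with a known strand, and 30 (52.6%) had one in the first 1000 bp, against 59.5%. Of the beta genes, 17 of 22 had a late peak and 10 an early one. In Panx2 replicate 2, 34 members (59.6%) had a late peak (background 45.4%) and 34 an early one (background 65.6%). The groups differed there: 11 alpha, 14 beta and 9 gamma genes had a late peak, and 11, 4 and 19 an early one. Mgea5 replicate 2 had late peaks at 13 members, 22.8% against 33.7%, and early ones at 19, 33.3% against 35.7%. Panx2 replicate 1 had late peaks at 4 members, 7.02% against 9.67%, and early ones at 3, 5.26% against 7.44%. These stretches were chosen after the profile had been seen, and the same peaks underlie both.

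At the first exon as a whole, 24 of 57 members (42.1%) had Mgea5 peaks in both replicates, against a background of 44.7% of protein-coding genes, a share close to that of all genes. They were 5 alpha, 9 beta and 10 gamma genes. Replicate 1 alone had peaks at 51 members (89.5%, background 71.1%) and replicate 2 at 27 (47.4%, background 54.4%), so the replicates lie on either side of their backgrounds. Panx2 peaks of both replicates were at 6 members (10.5%, background 10.8%): Pcdha9, Pcdhb14, Pcdhb15, Pcdhb20, Pcdhga5 and Pcdhga10. Panx2 replicate 2 alone had peaks at 50 members (87.7%, background 74.2%), including all 14 alpha genes and 20 of the 21 gamma genes, with Pcdhgc3 as the gene without. Replicate 1 had them at the 6 members only (background 14.3%).

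Every member had a first-exon peak in at least 1 list, as did 88.9% of all protein-coding genes. Peaks in 4 lists were the most seen at 1 member, and 4 members had them (7.02%, against 13.7% of genes with 4 or more): Pcdha2, Pcdha5 and Pcdhb21 had peaks in both Mgea5 lists, Panx2 replicate 2 and Polr1c replicate 2, and Pcdhb14 in both Mgea5 and both Panx2 lists. The folds at Pcdhb14 were 2.06 and 1.71 for Mgea5 and 1.87 and 2.20 for Panx2. Those at Pcdha2 were 1.67 and 1.73 for Mgea5, 2.77 for Panx2 replicate 2 and 3.06 for Polr1c replicate 2. Pcdha5 had 1.62, 1.73, 2.18 and 3.06 in the same order, and Pcdhb21 had 1.87, 1.65, 1.80 and 2.45. A peak in 1 list only was found at 8 members (14%, background 13.6%): Pcdhb7, Pcdhb10, Pcdhb12, Pcdhb18 and Pcdhgc3 in Mgea5 replicate 1, and Pcdhb13, Pcdhb19 and Pcdhga12 in Panx2 replicate 2.

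**Figure D4:**
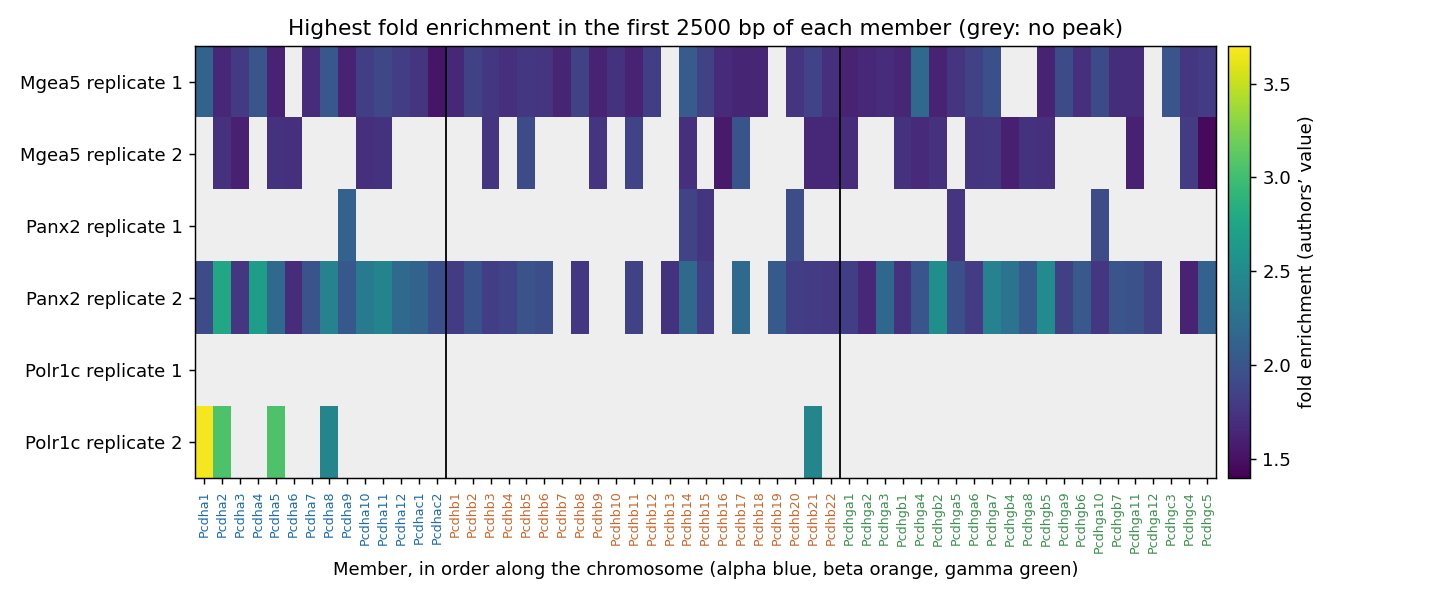
Colour gives the highest fold enrichment among peaks in the first 2500 bp of each of the 57 members, in chromosome order, for the 6 lists; grey means no peak. The rows of Mgea5 replicate 1 (51 members) and Panx2 replicate 2 (50 members) are nearly full, Panx2 replicate 1 has 6 members and Polr1c replicate 1 none.

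How much of the first exon a peak covered varied from member to member. In Mgea5 replicate 1 the share ran from 0% to 83.5%, at Pcdhgc5, with a median of 25.4%, and Pcdhb22 followed at 83.2%. In Mgea5 replicate 2 the median was 0% and the highest share 84.0%, at Pcdhga6. In Panx2 replicate 2 the median was 27.0% and the highest share 64.6%, at Pcdhb4, with Pcdhac2 at 64.3% and Pcdhgc5 at 63.2%. More than 50% of the exon was covered at 9 members (15.8%, background 16.7%) in Mgea5 replicate 1 and 2 (3.51%, background 5.09%) in replicate 2. For Panx2 this was so at no member in replicate 1 (background 1.66%) and at 6 (10.5%, background 23.6%) in replicate 2. Folds were alike among members with a peak: 1.53 to 2.18 (median 1.75) and 1.46 to 2.0 (median 1.73) for Mgea5, 1.76 to 2.12 (median 1.90) and 1.62 to 2.77 (median 1.98) for Panx2. The medians over all genes with a peak were 1.74, 1.69, 1.80 and 1.97.

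At the start itself, within 1000 bp on either side, fewer members than other genes had Mgea5 peaks. Both replicates had one at 12 of 57 members (21.1%), against 39.6% of protein-coding genes, of which 1 was an alpha, 5 were beta and 6 gamma genes. The background is 38.1% when the low-coordinate end is used for every gene, as it had to be for the members, and 40.1% over genes with a known strand. Each replicate alone was also below its background, with 31 members (54.4%, background 67.8%) and 24 (42.1%, background 50.3%). The alpha gene was Pcdha2, with folds of 1.62 and 1.73. The highest beta genes were Pcdhb14 (2.06 and 1.73), Pcdhb5 (1.77 and 1.78), Pcdhb9 (1.62 and 1.75) and Pcdhb22 (1.71 and 1.65), and the highest gamma genes Pcdhgc4 (1.77 and 1.80), Pcdhga11 (1.70 and 1.76), Pcdhgb1 (1.65 and 1.73) and Pcdhga4 (1.65 and 1.68).

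Panx2 peaks of both replicates stood at the starts of 3 members (5.26%, background 9.22%): Pcdha9 with 2.12 and 2.03, Pcdhga8 with 1.99 and 2.05, and Pcdhga12 with 1.76 and 1.85. In replicate 2 alone the groups parted, with 11 of 14 alpha and 19 of 21 gamma starts but 4 of 22 beta starts, against a background of 72.0%. Those 4 were Pcdhb1 (1.80), Pcdhb2 (1.76), Pcdhb3 (1.83) and Pcdhb4 (2.0), the first 4 beta genes along the chromosome. Replicate 1 had peaks at 7 starts (12.3%, background 12.8%), too few to compare the groups. They were 4 beta starts (Pcdhb14, Pcdhb16, Pcdhb17 and Pcdhb20), 1 alpha and 2 gamma starts. No member had start peaks in both replicates of more than 1 protein (background 4.77%). With no start peak in any list there were 7 (12.3%, background 11.7%), about the share of all genes: Pcdha6, Pcdhb6, Pcdhb7, Pcdhb12, Pcdhb13, Pcdhb15 and Pcdhb19.

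The C-type genes and the genes at the borders of the groups had folds in the same range. The starts of Pcdhac1 and Pcdhac2 had peaks in Mgea5 replicate 1 (1.72 and 1.53) and Panx2 replicate 2 (2.13 and 1.95), and none in the other 4 lists. Pcdhgc4 and Pcdhgc5 had them in both Mgea5 lists (1.77 and 1.80 for Pcdhgc4, 1.80 and 1.46 for Pcdhgc5) and in Panx2 replicate 2 (1.62 and 1.79), and Pcdhgc3 in Mgea5 replicate 1 only (1.58). Of the border genes, the start of Pcdha1 had folds of 1.77 in Mgea5 replicate 2 and 1.54 in Panx2 replicate 2. The start of Pcdhb1 had 1.66 in Mgea5 replicate 1 and 1.80 in Panx2 replicate 2, and that of Pcdhga1 had 1.62 and 1.69 in Mgea5 and 1.83 in Panx2 replicate 2.

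Polr1c marked no member in both replicates (0 of 57; background 0.425% at the start and 0.347% in the first exon). All 9 peaks came from replicate 2, and 5 of them lay in alpha genes or between them, with none in the gamma group. The highest, at a fold of 3.67 (q = 0.0508), spanned 36932422 to 36932587, late in the first exon of Pcdha1. Those with a fold of 3.06 lay at 36939398 to 36939593 in Pcdha2 and at 36960562 to 36960708 in Pcdha5, early in the exon. Peaks with a fold of 2.45 were in the first exons of Pcdha8 (36993695 to 36994007) and Pcdhb21 (37515826 to 37515989) and between Pcdhb8 and Pcdhb9 (37392826 to 37393151). The others were between Pcdha12 and Pcdhac1 (37035159 to 37035349, fold 2.75) and between the beta and gamma groups (37633909 to 37634079, fold 2.75, and 37630837 to 37631028, fold 2.49). With 5 members (8.77%) the first exons were below the background of 13.2% in that list, and with 2 starts below 12.7%. Within the first exon, 3 members (5.26%) had a peak that reached the last 1000 bp, against 2.92%, and 2 had a peak in the first 1000 bp, against 10.9%. The Pcdha8 peak, counted among the 3, lay mostly before that last stretch. Replicate 1 had no peak at any member, where backgrounds were 0.489% at the start, 0.388% in the first exon, 0.349% in its first 1000 bp and 0.0629% in its last 1000 bp.

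Of the 3 highest peaks in each Mgea5 and Panx2 list, 12 in all, 4 lay in first exons as defined here, which make up 15.6% of the locus. The highest peak of each Panx2 list lay over the end of a beta gene, past its first 2500 bp, and was not counted. Among all peaks of the locus, 69 of 166 and 32 of 123 touched a first exon in Mgea5. In Panx2 these were 7 of 57 and 68 of 149, so the highest peaks did not stand apart in this. In Panx2 replicate 2 the highest fold was 3.60 (q = 0.0161) at 37323855 to 37324232, over the high-coordinate end of Pcdhb5. Next came 3.02 (q = 0.131) at 37630262 to 37631180, between Pcdhb22 and Pcdhga1, and 2.77 (q = 0.440) at 36939307 to 36939469 in the first exon of Pcdha2. Mgea5 replicate 1 was highest between the alpha and beta groups, with 2.51 at 37231632 to 37231798. It was followed by 2.38 at 37366436 to 37366645, between Pcdhb8 and Pcdhb9, and 2.18 at 37687178 to 37687352 in the first exon of Pcdhga4. Mgea5 replicate 2 reached 2.0 at 37485143 to 37485285 in the first exon of Pcdhb17, then 1.98 at 37471054 to 37471186 and 1.95 at 37348383 to 37348517, both between beta genes. Panx2 replicate 1 reached 2.19 at 37450731 to 37451182, over the end of Pcdhb14, then 2.15 at 37094278 to 37094679, after Pcdhac1, and 2.12 at 36997991 to 36998277 in Pcdha9.

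Replicates shared few positions. Of the 123 Mgea5 replicate 2 peaks, 29 (23.6%) overlapped replicate 1 by at least 1 bp, and of the 166 replicate 1 peaks 29 (17.5%) overlapped replicate 2. Genome wide these shares were 37.0% and 34.8%. For Panx2, 4 of 57 replicate 1 peaks (7.02%) and 4 of 149 replicate 2 peaks (2.68%) overlapped, against 28.1% and 8.86% genome wide. The Mgea5 peaks met in 30 regions, of which 12 lay in first exons (1 alpha, 5 beta, 6 gamma) and 6 in constant regions. The highest geometric means of the folds were between Pcdha12 and Pcdhac1, at 37037550 to 37037686 (1.95 and 1.83) and 37074964 to 37075064 (2.13 and 1.65), and late in the first exon of Pcdhga7 at 37716841 to 37717141 (1.96 and 1.76).

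Mgea5 replicate 1 shared more positions with Panx2 replicate 2 than with its own replicate. Of its 166 peaks 69 (41.6%) overlapped Panx2 replicate 2, and 68 of 149 Panx2 peaks (45.6%) overlapped it, against 37.5% and 41.7% genome wide. For Mgea5 replicate 2 the shares were 33 of 123 (26.8%) and 34 of 149 (22.8%), against 32.9% and 34.6%. In the first exons, bases covered by both Mgea5 replicate 1 and Panx2 replicate 2 made up 31.6% of the former and 33.7% of the latter, while the Mgea5 replicates shared 10.0% of replicate 1 and 26.5% of replicate 2. These 3 lists belong to the same calling run. Of the Panx2 replicate 1 peaks, which come from the other run, 8 of 57 (14%, 33.1% genome wide) overlapped Mgea5 replicate 1. Calling run and replicate cannot be told apart for Panx2.

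Places where 4 lists coincided numbered 2, and neither lay in a member. The first was between Pcdhb8 and Pcdhb9 (37392826 to 37392950), with folds of 1.86 and 1.72 for Mgea5, 1.82 for Panx2 replicate 2 and 2.45 for Polr1c replicate 2. The second was between the beta and gamma groups (37630837 to 37631028), 30747 bp before the start of Pcdhga1, with 1.78 and 1.70 for Mgea5, 3.02 for Panx2 replicate 2 and 2.49 for Polr1c replicate 2. These 4 lists are those of 1 calling run. No base of the locus was covered by 5 or 6 lists, and 72.5% of it by none.

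Among neighbours, all genes in the span or within 200 kb of it, a Polr1c site in both replicates stood out. At Vaultrc5, a vault RNA gene of the kind transcribed by RNA polymerase III (36801763 to 36802107, annotated as lncRNA), the Polr1c folds were 7.40 and 5.61. It lies 128178 bp before the first alpha gene, and its replicate 1 fold is the highest of that list on chromosome 18. Mgea5 peaks of both replicates were near the low-coordinate end of 7 of 18 protein-coding neighbours (38.9%), a share close to the 38.1% of all genes at that end. Outside the span these were the histidyl-tRNA synthetase genes Hars (2.08 and 1.61) and Hars2 (2.13 and 1.91), Zmat2 (1.56 and 1.53), Ik (1.71 and 1.45), Rell2 (1.99 and 1.58) and the formin gene Diaph1 (1.68 and 1.5), which follows the gamma group. Inside the span, the pseudogene Pcdhgb8 had Panx2 peaks of both replicates near its start (1.90 and 1.66) and an Mgea5 peak in replicate 2 (1.51). So did the pseudogene Gm8242 (1.78 and 1.79), with an Mgea5 peak in replicate 1 (1.88). The mitochondrial carrier gene Slc25a2 had Mgea5 folds of 1.62 and 1.65 and a Panx2 peak in replicate 1 only (1.76). Taf7, which encodes a TFIID subunit, had 1.84 in Mgea5 replicate 1 and no peak in Mgea5 replicate 2. Beyond the gamma group, the lncRNA gene Gm30093 had peaks of both proteins in both replicates (1.89 and 1.92 for Mgea5, 1.98 and 2.98 for Panx2), and the miRNA genes Mir6981 (2.11 and 1.70) and Mir6980 (1.79 and 1.63) had Mgea5 peaks in both. Gm37013, Gm38666 and Gm38667 start at alpha genes and end with the gamma group, so their starts share the windows of Pcdha4, Pcdha6 and Pcdha7.

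Other genes tied to protocadherins were counted by the same rule, at their starts where the strand was known. It was known for 9 of 12 protocadherin genes outside the clusters, 14 of 17 CTCF, cohesin and silencing genes and 8 of 17 partner genes. The others were counted at the low-coordinate end, which can be the far end of the gene. Among the genes named here these are Pcdh1, Pcdh12, Stag2, Rad21, Cyfip1 and Marcks. Of 12 protocadherin genes outside the clusters, 4 had Mgea5 peaks in both replicates (background 39.6%): Pcdh12 (1.84 and 1.84), Pcdh1 (1.88 and 1.62), Pcdh15 (1.68 and 1.63) and Pcdh18 (1.75 and 1.46). None had Panx2 or Polr1c peaks in both. Of 17 genes of CTCF, cohesin and silencing factors, 11 had Mgea5 peaks in both (background 39.6%). They include the cohesin subunit genes Stag2 (1.98 and 1.65) and Stag1 (1.94 and 1.68) and the zinc finger gene Zfp143 (1.85 and 1.73). Panx2 peaks of both replicates were at 4 of them (background 9.22%): Stag1 (1.98 and 3.13), Pds5a (1.88 and 2.31), Ctcf (1.76 and 2.35) and Rad21 (1.63 and 2.04). Of 17 genes for cytoplasmic partners, 6 had Mgea5 peaks in both (background 39.6%). They were led by the WAVE complex genes Cyfip2 (1.82 and 1.88) and Cyfip1 (1.93 and 1.69) and the actin-binding protein gene Marcks (1.78 and 1.64), which also had Panx2 peaks (1.76 and 1.83). No gene of the 3 lists had Polr1c peaks in both replicates. In replicate 2 alone 10 of the 46 had one (21.7%, background 12.7%), with 5.91 at the DNA methyltransferase gene Dnmt3b as the highest.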

How the data were processed

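ChIP-seq peak lists of 6 libraries were used, 1 for each of 2 replicates of 3 proteins. Per the submitters' processing notes, the tools were Bowtie2 2.3.5, MACS3 3.0.0a5 and Trim Galore, and the build mm10. Not given in the sources used here were the control, the thresholds, the handling of duplicate or multiply mapped reads, and read depth. Each peak has 3 values from the authors, the fold enrichment (a ratio) and its −log10 p and −log10 q, in broad layout for Mgea5 and Panx2 and narrow for Polr1c. The lowest deposited −log10 p was 1.00 in the broad and 2.00 in the narrow lists, so weak positions are included.

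Genes came from RefSeq GRCm38.p6, and strands of 17492 genes from its promoter table; the other 4395, chromosome 18 included, were counted at the low-coordinate end. Overlap meant at least 1 bp. Counts of members are set beside the share of all protein-coding genes called in the same list, with no test. Calculations used Python 3.11.15 and pandas 2.3.3, and the overlap code was tested on simulated peaks.

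The members and lists were chosen with earlier results of these data known. Named are all Polr1c peaks, the 3 highest peaks per list, up to 4 members per group and protein with the highest geometric mean fold at the start, C-type and border genes, members without start peaks, neighbours with peaks in both replicates, and up to 3 genes of each other list by that mean. Further names, such as the members with first-exon peaks in 4 lists or in 1, those most covered, and Pcdh18 and Rad21, were chosen after their values were seen. Alternatives are given in the closing section.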

Additional observations from a re-analysis of the deposited data

How the results depend on the processing

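Leaving 1 replicate out of a mean of 2 cannot move it past 1 SD, so those values are given without a verdict. Of the 61 other alternative values, 39 stayed within 1.5 times the reported count, or within 1 SD or the confidence interval. Member counts with Mgea5 peaks of both replicates at the start were 31 with windows of 2500 bp (54.4%, background 66.0%), 21 at either end (36.8%, background 64.3%), and 0 with a fold of at least 2 (background 1.18%) or a −log10 q of at least 2 (background 0.206%). For Panx2 they were 13 (22.8%, background 22.4%), 5 (8.77%, background 20.1%), 1 (1.75%, background 0.402%) and 0 (background 0%). Leaving out 1 replicate gave 24 to 31 for Mgea5, 7 to 34 for Panx2 and 0 to 2 for Polr1c. In the first exon, a fold of at least 2 left 0 members for Mgea5 (background 1.20%) and 1 for Panx2 (1.75%, background 0.507%). Leaving out 1 replicate there gave 27 to 51 for Mgea5, 6 to 50 for Panx2 and 0 to 5 for Polr1c. The share of the locus covered was 8.54% ± 2.46 (SD, n = 2) for Mgea5 and 7.73% ± 3.08 (SD, n = 2) for Panx2, and fell to 0.339% and 1.38% with a fold of at least 2. Leaving out 1 replicate gave 6.81 to 10.3%, 5.55 to 9.91% and, for Polr1c, 0 to 0.205%. First exons exceeded the sequence between them by 14 percentage points in Mgea5 (0.339 with a fold of at least 2; 5.11 to 22.9 leaving out 1 replicate) and 8.46 in Panx2. Without Panx2 replicate 2 this turned to -5.33, and without replicate 1 it was 22.2. Of 123 Mgea5 peaks, 29 were shared by the replicates (23.6%, exact interval 16.4 to 32.1%). The interval treats the 123 peaks as separate trials and does not measure the spread between replicate libraries. With a fold of at least 2 the share became 0%, of 1 peak. The cause of these changes was not tested, except that the stricter settings leave fewer peaks. No paired analysis was possible because the counts and shares come from no test; the first-exon difference was taken within each list. Depth is unknown, so a missing peak is not an absence of signal.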
